A study of Mus musculus with 12 samples.

Results

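The BCL2 family decides whether the mitochondrial outer membrane of a stressed cell is opened, and its transcripts were followed here in MIN6 cells, a beta-cell line from a mouse insulinoma, after depletion of the transcription factor Pdx1. The members were 10 family genes, listed by name with earlier results of these data known: Bcl2, Bcl2l1, Mcl1, Bax, Bak1, Bad, Bid, Bcl2l11, Bbc3 and Pmaip1. Of these, 9 had a row among the 12643 genes of the count tables, and Pmaip1 was not analysed here. RNA was sequenced in 12 libraries, in 4 groups of 3. The groups were total RNA of cells with Pdx1 siRNA, total RNA of cells with the control siRNA called NT, IP RNA of cells with Pdx1 siRNA and IP RNA of cells with NT siRNA. All cells were MIN6 cells at passage 29, received an siRNA by nucleofection, grew in high-glucose medium and were harvested 72 h later. IP RNA is the fraction pulled down with ribosomes by translating ribosome affinity purification (TRAP), and total RNA is the unselected RNA of the same kind of preparation. The sources used here do not give the tagged ribosomal protein, the siRNA sequences or whether the 3 libraries of a group came from separate cultures. P-values therefore measure only the spread among these libraries, part or all of which may be technical.

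Proteins of the family work against each other. BCL2, BCL-XL (from Bcl2l1) and MCL1 hold the effectors BAX and BAK in check, and once freed the effectors form pores in the mitochondrial outer membrane that release cytochrome c and start the caspase cascade. BH3-only proteins tip this balance: BIM (from Bcl2l11), PUMA (from Bbc3), BID and BAD bind the protective members, and BIM, BID and PUMA can also engage the effectors. Beta cells depend on the balance because they are sensitive to secretory stress, and many of these proteins are controlled after transcription, MCL1 by rapid turnover, BAD by phosphorylation and BID by cleavage, so a transcript level is only part of their control.

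Levels are CPM, counts scaled to a common library size after TMM normalization, and where a gene had several transcripts the one with the most counts over all libraries stands for it. Libraries held 29430690 to 45806807 counts over all genes. The member with the fewest counts in a library was Bid with 116, and the most abundant was Bax with up to 5767. Pdx1 itself, the gene targeted, was at 47.6, 57.4 and 47.9 CPM in total RNA with Pdx1 siRNA, against 118, 123 and 110 CPM in total RNA with NT siRNA. In IP RNA it was at 50.6, 46.7 and 39.2 CPM with Pdx1 siRNA, against 104, 115 and 111 CPM with NT siRNA. All libraries with Pdx1 siRNA were below all libraries with NT siRNA, so the target went with the labels. All 12 listed beta-cell markers were measured, and their summed level was 94803 to 101190 CPM in total RNA with Pdx1 siRNA and 105114 to 116257 CPM in total RNA with NT siRNA, without overlap. In IP RNA it was 186210 to 229951 CPM with Pdx1 siRNA and 205630 to 240231 CPM with NT siRNA, with overlap. At Rpl32l, a gene whose reads can also match near-identical copies, 4 libraries were set apart. Replicate 3 of NT IP had 29 counts and the Pdx1 siRNA IP libraries 33, 37 and 22. The other NT IP libraries had 1726 and 1260 and the total RNA libraries 699 to 1131. Replicate 3 is thus the only NT IP library on the Pdx1 siRNA side of this split. Without it, the siRNA effect in IP RNA cannot be told apart from the split. At Tpt1, replicate 3 of NT IP stood apart from all other IP libraries, with 405 counts. The Pdx1 siRNA IP libraries had 3218, 2963 and 4412 there, and the other NT IP libraries 4166 and 3801. No member's transcript matched one of a gene elsewhere in the genome over any part of its length (alignments of at least 100 bases at 95% identity). Genes that overlap a member's own locus were left out of this search, and their shared exons are given below. The siRNA effects on the members in IP RNA are given with and without replicate 3 of NT IP.

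The widest differences in the family were between genes, not between groups. Bax had the highest level per kilobase of transcript in every group, with 71.6 CPM per kb in total RNA with Pdx1 siRNA, 62.3 in total RNA with NT siRNA, 186 in IP RNA with Pdx1 siRNA and 114 in IP RNA with NT siRNA. Bcl2 had the lowest in every group, with 1.21 CPM per kb in total RNA with Pdx1 siRNA, 0.89 in total RNA with NT siRNA, 1.36 in IP RNA with Pdx1 siRNA and 1.05 in IP RNA with NT siRNA. Mcl1 came second in total RNA, at 18.2 CPM per kb with Pdx1 siRNA and 17.1 with NT siRNA. In IP RNA with Pdx1 siRNA the next places after Bax were held by Bcl2l1 at 16.9, Bad at 16.6 and Mcl1 at 16.1 CPM per kb, and the libraries of neighbours in that order overlapped. In IP RNA with NT siRNA, Bad at 17.1 and Mcl1 at 14.9 CPM per kb overlapped, and Bcl2l1 followed at 11.4 without overlap. The BH3-only genes other than Bad, and the second effector Bak1, lay between 1.88 and 7.52 CPM per kb in all groups. In that lower range Bbc3 took the first place in both groups with Pdx1 siRNA. In the groups with NT siRNA its libraries overlapped those of Bak1, which was one place below it in total RNA and one place above it in IP RNA.

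**Figure D1:**
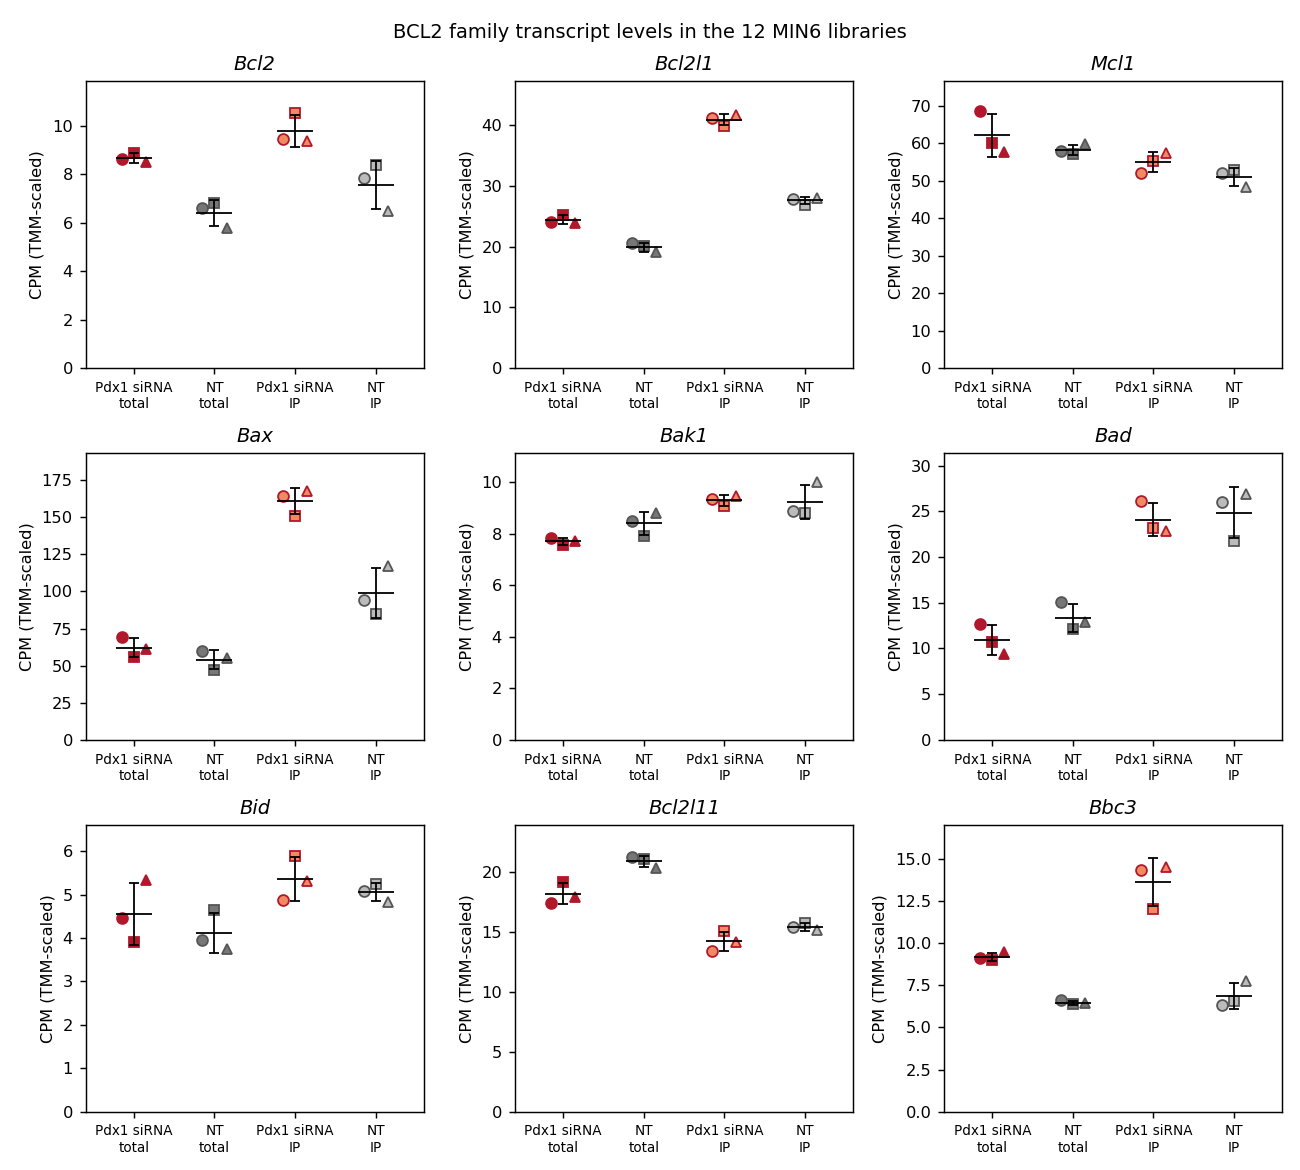
Level of each measured family member in CPM (vertical axes, starting at 0) in the 12 libraries, with Pdx1 siRNA to the left of NT siRNA within total RNA and within IP RNA. Symbols are libraries (circle, square and triangle for replicates 1, 2 and 3), and black lines show the mean and SD of 3 libraries. Bax stands highest in IP RNA with Pdx1 siRNA (151 to 167 CPM), and Bcl2l1 and Bbc3 rise in the same group.

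In total RNA, Pdx1 siRNA raised members from both sides of the family. The BH3-only gene Bbc3 and the protective genes Bcl2 and Bcl2l1 were higher, the BH3-only genes Bcl2l11 and Bad were lower, and Mcl1, Bax, Bak1 and Bid did not pass the test. The largest of these changes was the 1.42-fold rise of Bbc3. Over all 12643 genes, 53.0% passed the same test (23.8% higher and 29.2% lower), so 5 of 9 members past it is near the background of this comparison. The median log2 fold change was 0.14 over the members and -0.04 over all genes. In bulk RNA such as this, fewer cells of a type and less RNA per cell cannot be told apart. Of 16 listed markers of other cell types, 2 were measured, both of them islet hormones: the summed level of Gcg (glucagon) and Ppy was 2881 to 3290 CPM with Pdx1 siRNA, against 751 to 785 CPM with NT siRNA, in total RNA, and 5253 to 5951 CPM with Pdx1 siRNA, against 1494 to 1537 CPM with NT siRNA, in IP RNA. The other 14 listed markers were not analysed here, and the part of this shift, and of the lower beta-cell marker sum in total RNA, in the members' results was not tested.

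Among the protective members in total RNA, Bcl2 (chromosome 1, 106538176 to 106714290, minus strand) was at 8.62, 8.89 and 8.50 CPM with Pdx1 siRNA, against 6.60, 6.81 and 5.80 CPM with NT siRNA. The groups did not overlap, and the log2 fold change was 0.44 (SE 0.10, adjusted p = 0.00171). Bcl2l1 (chromosome 2, 152758732 to 152833803, minus strand), which encodes BCL-XL, was at 24.1, 25.3 and 23.9 CPM with Pdx1 siRNA, against 20.5, 20.1 and 19.1 CPM with NT siRNA. Its libraries were also separate, at a log2 fold change of 0.30 (SE 0.06, adjusted p = 0.00108). Mcl1 (chromosome 3, 95656944 to 95663179, plus strand), the most abundant protective transcript in total RNA, was at 68.7, 60.1 and 57.8 CPM with Pdx1 siRNA, against 58.0, 57.2 and 59.7 CPM with NT siRNA. One of its libraries with Pdx1 siRNA was high, and the lowest lay within the range of the controls (log2 fold change 0.09, 95% interval -0.07 to 0.25, adjusted p = 0.318).

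Neither effector passed the test in total RNA. Bax (chromosome 7, 45461695 to 45466903, minus strand) was at 69.0, 56.0 and 61.3 CPM with Pdx1 siRNA, against 59.6, 47.0 and 55.3 CPM with NT siRNA. The groups overlapped (log2 fold change 0.20, 95% interval -0.05 to 0.45, adjusted p = 0.165). Bak1 (chromosome 17, 27019812 to 27028627, minus strand) was at 7.82, 7.57 and 7.72 CPM with Pdx1 siRNA, against 8.48, 7.93 and 8.80 CPM with NT siRNA. Every Pdx1 siRNA library was below every NT library, but the difference did not pass the test (log2 fold change -0.13, 95% interval -0.29 to 0.04, adjusted p = 0.188), and 58.8% of all genes had groups without overlap in this comparison.

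The BH3-only members moved in different directions in total RNA. Bbc3 (chromosome 7, 16308398 to 16318334, plus strand), which encodes the p53 target PUMA, was at 9.14, 9.004 and 9.46 CPM with Pdx1 siRNA, against 6.60, 6.37 and 6.46 CPM with NT siRNA. The 3 libraries of each group lay close together and far from the other group (log2 fold change 0.51, SE 0.09, adjusted p = 0.000346). Bcl2l11 (chromosome 2, 128126038 to 128162547, plus strand), which encodes BIM, was at 17.4, 19.1 and 17.9 CPM with Pdx1 siRNA, against 21.3, 21.0 and 20.3 CPM with NT siRNA. These groups did not overlap either, and the log2 fold change was -0.20 (SE 0.07, adjusted p = 0.0194), a call that was lost under 7 of 22 alternatives, 5 of which leave out a total RNA library (any with NT siRNA, at -0.18 to -0.15, and replicate 1 or 3 with Pdx1 siRNA). Bad (chromosome 19, 6941861 to 6951905, plus strand) was at 12.7, 10.7 and 9.38 CPM with Pdx1 siRNA, against 15.1, 12.1 and 12.9 CPM with NT siRNA. Its groups overlapped, its adjusted p was just under the threshold (log2 fold change -0.29, SE 0.12, adjusted p = 0.0455), and the call was lost under 14 of 22 alternatives. Leaving out any library other than replicates 2 and 3 of NT IP and replicate 1 of Pdx1 siRNA total RNA ended the call, with values of -0.16 without replicate 1 of NT total RNA and -0.20 without replicate 3 of Pdx1 siRNA total RNA. Bid (chromosome 6, 120893119 to 120917062, minus strand) was at 4.45, 3.90 and 5.32 CPM with Pdx1 siRNA, against 3.96, 4.64 and 3.75 CPM with NT siRNA, with overlapping groups (log2 fold change 0.14, 95% interval -0.12 to 0.41, adjusted p = 0.356).

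For Bad, Bak1 and Bcl2 the reads of a neighbour on the opposite strand could enter the count, since the use of strand in counting is not given. Of the Bad transcript, 35.6% lies in exons shared with Gpr137 on the opposite strand. Gpr137 went the other way in total RNA, with 45.7, 41.2 and 45.1 CPM with Pdx1 siRNA, against 34.7, 31.9 and 33.5 CPM with NT siRNA (log2 fold change 0.40, SE 0.07, adjusted p = 0.000303). In IP RNA it was also higher with Pdx1 siRNA (log2 fold change 0.71, SE 0.07), and its part in the Bad count was not tested. Of the Bak1 transcript, 25.7% lies in exons shared with Ggnbp1 on the opposite strand, which stayed below 3.1 CPM in all libraries. The Bax transcript shares 22.1% of its bases with Gm45808 on the same strand, and the Bcl2 transcript 7.76% with D630008O14Rik on the opposite strand. Reads of Gm45808 could enter the Bax count whatever the use of strand. Neither of these neighbours has a row of its own here, and their part in the Bax and Bcl2 counts was not tested. The other 5 members share no exon with an annotated gene.

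In IP RNA, Pdx1 siRNA raised 4 members and lowered 0, by edgeR and by DESeq2, and 0 were lower at an unadjusted p under 0.05. Bbc3 was 1.97-fold higher, the effector Bax 1.63-fold, Bcl2l1 1.48-fold and Bcl2 1.30-fold. Mcl1, Bak1, Bad, Bid and Bcl2l11 did not pass the test. Of all genes, 59.7% passed in this comparison (29.2% higher and 30.4% lower), against 4 of 9 members. The median log2 fold change was 0.11 over the members and -0.01 over all genes. Bbc3 had a higher log2 fold change than 95.5% of all genes, and Bax than 90.5%.

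Bbc3 was at 14.3, 12.01 and 14.5 CPM in IP RNA with Pdx1 siRNA, against 6.36, 6.54 and 7.77 CPM with NT siRNA. The lowest Pdx1 siRNA library was well above the highest NT library (log2 fold change 0.98, SE 0.09, adjusted p = 4.28e-07). Without replicate 3 of NT IP, the highest NT library, the difference was 1.08 (adjusted p = 1.61e-07). That was the highest of 23 alternatives, and the lowest was 0.81. Bax was at 164, 151 and 167 CPM with Pdx1 siRNA, against 94.5, 84.8 and 117 CPM with NT siRNA. The groups were separate, and the NT library nearest to the Pdx1 siRNA group was replicate 3 (log2 fold change 0.70, SE 0.12, adjusted p = 0.000116). That is the only NT IP library with the low Rpl32l count of the Pdx1 siRNA IP libraries. The Bax difference was 0.84 without it (adjusted p = 8.15e-06). Set against that library alone, chosen as a check after the data had been seen, the difference was 0.45 (adjusted p = 0.0234, the highest of 23 alternatives).

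Bcl2l1 was in tight groups in IP RNA, with 41.2, 39.8 and 41.6 CPM with Pdx1 siRNA, against 27.9, 26.9 and 28.1 CPM with NT siRNA. The difference was many times the spread within either group (log2 fold change 0.57, SE 0.06, adjusted p = 1.83e-06), and it was 0.58 without replicate 3 of NT IP (adjusted p = 6.97e-06). Bcl2 was at 9.48, 10.55 and 9.38 CPM with Pdx1 siRNA, against 7.84, 8.39 and 6.48 CPM with NT siRNA. Here the groups lay closer together without overlap (log2 fold change 0.38, SE 0.10, adjusted p = 0.00478), and replicate 3 of NT IP was the lowest. Without that library the Bcl2 difference was 0.28 (adjusted p = 0.026), and against it alone 0.60 (adjusted p = 0.00286), in a range of adjusted p from 0.00119 to 0.0514 over the alternatives.

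The other 5 members did not pass the test in IP RNA. Mcl1 was at 52.1, 55.3 and 57.4 CPM with Pdx1 siRNA, against 52.0, 52.9 and 48.4 CPM with NT siRNA, with overlap (log2 fold change 0.11, 95% interval -0.06 to 0.27, adjusted p = 0.243). Bcl2l11 was at 13.4, 15.1 and 14.1 CPM with Pdx1 siRNA, against 15.4, 15.8 and 15.1 CPM with NT siRNA. Its Pdx1 siRNA libraries were the lower ones, as in total RNA, with no overlap, which 64.9% of all genes had in this comparison (log2 fold change -0.12, 95% interval -0.26 to 0.03, adjusted p = 0.161). Bad was at 26.1, 23.2 and 22.8 CPM with Pdx1 siRNA, against 26.0, 21.7 and 26.9 CPM with NT siRNA, and the groups overlapped (log2 fold change -0.05, 95% interval -0.29 to 0.19, adjusted p = 0.718). Bak1 was at 9.36, 9.08 and 9.46 CPM with Pdx1 siRNA, against 8.90, 8.80 and 10.01 CPM with NT siRNA (log2 fold change 0.01, 95% interval -0.16 to 0.18, adjusted p = 0.932). Bid was at 4.87, 5.90 and 5.31 CPM with Pdx1 siRNA, against 5.09, 5.24 and 4.82 CPM with NT siRNA (log2 fold change 0.09, 95% interval -0.17 to 0.36, adjusted p = 0.536). For both of these genes the groups overlapped. Without replicate 3 of NT IP the log2 fold change was 0.07 for Mcl1, -0.13 for Bcl2l11, 0.01 for Bad, 0.07 for Bak1 and 0.06 for Bid, and these 5 still did not pass (lowest adjusted p = 0.187).

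**Figure D2:**
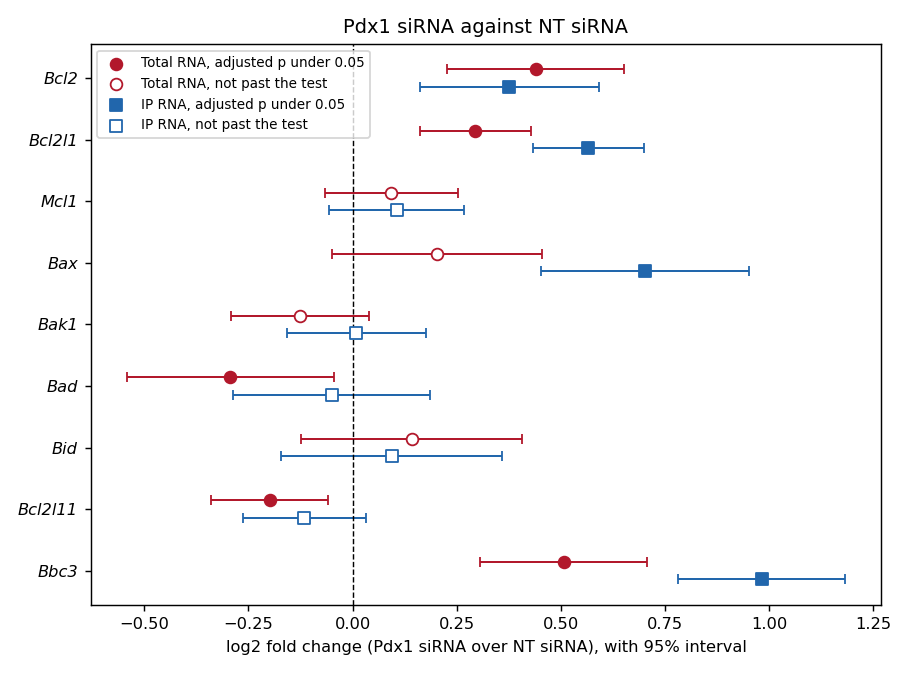
Log2 fold change of Pdx1 siRNA over NT siRNA (horizontal axis) for each member (rows), in total RNA (red circles, upper) and IP RNA (blue squares, lower), with 95% intervals from the edgeR fit. Filled symbols passed the test at an adjusted p under 0.05. Bbc3, Bcl2l1 and Bcl2 were higher in both kinds of RNA, and Bax passed in IP RNA (0.70) and not in total RNA (0.20).

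The promoter-proximal sequences of the 4 members that rose in IP RNA are shown because they stand at the start of the genes whose transcripts went up. Each is the 250 bases upstream of a RefSeq transcript start on GRCm38.p6, in the direction of the gene, from the entry nearest to the transcript counted. Capitals mark a match to a searched motif.
Bbc3, chr7:16309333-16309582, plus strand: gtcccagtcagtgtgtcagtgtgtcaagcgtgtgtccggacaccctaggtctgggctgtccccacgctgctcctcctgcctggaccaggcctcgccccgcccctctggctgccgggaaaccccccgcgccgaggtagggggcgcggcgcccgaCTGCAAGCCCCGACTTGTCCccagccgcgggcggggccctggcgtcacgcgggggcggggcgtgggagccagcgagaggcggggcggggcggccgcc
Bax, chr7:45466899-45467148, minus strand: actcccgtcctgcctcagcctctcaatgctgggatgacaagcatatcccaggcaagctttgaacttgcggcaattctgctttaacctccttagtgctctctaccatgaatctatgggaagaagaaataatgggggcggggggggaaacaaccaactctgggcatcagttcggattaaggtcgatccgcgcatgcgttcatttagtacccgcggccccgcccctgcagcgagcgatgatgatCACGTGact
Bcl2l1, chr2:152831729-152831978, minus strand: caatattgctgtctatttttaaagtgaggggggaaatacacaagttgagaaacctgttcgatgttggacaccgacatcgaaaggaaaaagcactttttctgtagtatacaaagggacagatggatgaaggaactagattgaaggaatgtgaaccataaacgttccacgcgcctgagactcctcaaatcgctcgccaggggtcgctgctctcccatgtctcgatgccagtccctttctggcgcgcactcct
Bcl2, chr1:106714291-106714540, minus strand: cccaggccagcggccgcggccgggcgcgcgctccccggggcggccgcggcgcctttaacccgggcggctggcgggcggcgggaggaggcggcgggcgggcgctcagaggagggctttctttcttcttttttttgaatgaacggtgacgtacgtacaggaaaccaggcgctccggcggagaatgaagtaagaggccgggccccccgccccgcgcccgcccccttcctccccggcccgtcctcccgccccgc
The motifs searched on both strands were the p53 full site (a pair of adjoining 10-base decamers, with at most 3 mismatches and none in the 4 central bases of a decamer), the FOXO-type letters GTAAACA, the E-box CACGTG and the homeodomain-type letters TAATTA and TAATGA. The Bbc3 window held a p53 full site starting 97 bases before the start, with 3 mismatches, and 0.475% of 32851 upstream windows of this length held one. The Bax window held CACGTG starting 9 bases before the start, as 6.02% of windows held it. The Bcl2l11 window, which is not shown, held GTAAACA starting 227 bases before the start, against 3.17% of windows. Windows of other Bbc3 starts, also not shown, held CACGTG 64 bases and GTAAACA (on the other strand) 167 bases before their own starts. TAATTA occurs in 4.84% and TAATGA in 8.59% of windows, and in none of the 9 member windows. A match describes these letters and was not tested for binding.

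For Bcl2 a second transcript was counted, and its count went the other way. It is a single-exon form of 2841 bases (chromosome 1, 106710339 to 106713179), within the Bcl2 locus. Of these, 875 bases are shared with the main transcript and 1966 lie outside its exons. Reads from the shared bases, and from unspliced Bcl2 RNA over the others, were not told apart from this form. Its count was at 0.98, 1.45 and 0.94 CPM in total RNA with Pdx1 siRNA, against 1.78, 1.67 and 1.71 CPM with NT siRNA. In IP RNA it was at 1.01, 1.33 and 1.13 CPM with Pdx1 siRNA, against 1.51, 1.84 and 1.51 CPM with NT siRNA. The Pdx1 siRNA libraries were the lower ones in both, without overlap, while the main transcript, at 8.50 to 10.55 CPM with Pdx1 siRNA, was the higher one. This form was singled out after its values were seen, and no test is given. With the mean over both transcripts in place of the main one, the Bcl2 log2 fold change was 0.27 in total RNA (adjusted p = 0.0426) and 0.26 in IP RNA, where it no longer passed (adjusted p = 0.0514). For Bcl2l11 the 3 counted transcripts had nearly equal counts (7751 to 7914 summed over the libraries), as reads in shared exons enter each of them.

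Whether the siRNA effect was the same size in IP RNA as in total RNA was tested by the difference of the effects. The edgeR test called 0 of 9 members, and DESeq2 called 0, with 0.229% of all genes called (29 of 12643, 0.174% higher and 0.0554% lower), and 3 members had an unadjusted p under 0.05. The difference was 0.50 for Bax (95% interval 0.14 to 0.85, unadjusted p = 0.00892, adjusted p = 0.152), 0.47 for Bbc3 (0.19 to 0.76, unadjusted p = 0.0028, adjusted p = 0.0959) and 0.27 for Bcl2l1 (0.08 to 0.46, unadjusted p = 0.00791, adjusted p = 0.147). For these 3 genes the larger rise was in IP RNA. Leaving out replicate 3 of NT IP brought Bax to 0.64 (adjusted p = 0.0196) and Bbc3 to 0.57 (adjusted p = 0.0224), and all genes called to 571. In that fit the siRNA effect in IP RNA cannot be told apart from the Rpl32l split. For Bbc3 that fit was the only 1 of 22 alternatives with a call, while Bax also passed with all 12 libraries and the replicate number as a block, at 0.50 (adjusted p = 0.0433). Over all alternatives the adjusted p ran from 0.0196 to 0.968 for Bax and from 0.0224 to 0.918 for Bbc3. The other 6 members had differences between -0.06 and 0.24 with intervals that held 0, and for Bcl2 the interval was -0.37 to 0.24.

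The ratio of IP RNA over total RNA differed strongly between members. In IP RNA against total RNA, both with NT siRNA, Bad was 1.86-fold and Bax 1.83-fold higher, Bcl2l1, Bid and Bcl2 were also higher, and Bcl2l11 and Mcl1 were lower. Of all genes, 69.7% passed in this comparison (33.8% higher and 35.9% lower), against 7 of 9 members. Bad had a higher log2 ratio than 96.1% of all genes, and Bax than 95.5%. Gpr137, which shares exons with Bad, was itself at a log2 ratio of 0.67 with NT siRNA and 0.98 with Pdx1 siRNA. Its part in the Bad ratios was not tested. The counted transcripts were 867 bases for Bax, 1452 for Bad, 2189 for Bid and 2417 for Bcl2l1. They were 3418 bases for Mcl1 and 5036 for Bcl2l11, the lower genes. Bcl2, the longest at 7191 bases, was higher as well, and Bbc3 (1814) and Bak1 (2387) did not pass. The part of transcript length in these ratios was not tested. Since every library is scaled to the others, these are ratios relative to the rest of the transcripts and not amounts of ribosomes. This comparison and the siRNA comparisons share libraries, so they are not independent of each other.

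With NT siRNA, the log2 ratio of IP over total RNA was 0.90 for Bad (SE 0.11, adjusted p = 4.6e-06), 0.87 for Bax (SE 0.12, adjusted p = 1.02e-05) and 0.47 for Bcl2l1 (SE 0.06, adjusted p = 8.49e-06). For these 3 genes every IP library was above every total RNA library, as groups without overlap were found for 77.5% of all genes, and their calls stood under all 22 alternatives. Bcl2l11 was lower in every IP library, at a log2 ratio of -0.44 (SE 0.07, adjusted p = 3.32e-05), also under all 22. Mcl1 was lower by less, at -0.19 (SE 0.08, adjusted p = 0.0339), and lost its call under 12 of 22 alternatives, with the loss of any 1 library with NT siRNA among them (-0.20 to -0.13). Bid, at 0.29 (SE 0.12, adjusted p = 0.0453), and Bcl2, at 0.24 (SE 0.10, adjusted p = 0.0434), were near the threshold. Without replicate 1 or 2 of NT IP or replicate 3 of NT total RNA, and under further settings, both lost their calls, Bid under 5 of 22 alternatives (0.27 to 0.31 with a library left out) and Bcl2 under 7 (0.20 to 0.24). Bcl2 also had overlapping groups. Bbc3 was at 0.09 (95% interval -0.12 to 0.30, adjusted p = 0.424) and Bak1 at 0.14 (-0.03 to 0.30, adjusted p = 0.125). Without replicate 3 of NT IP the log2 ratio was 0.84 for Bad, 0.73 for Bax, 0.46 for Bcl2l1 and -0.42 for Bcl2l11.

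With Pdx1 siRNA the order of the ratios had Bax at the top in the main fit. IP RNA was 2.59-fold higher than total RNA for Bax, 2.21-fold for Bad, 1.67-fold for Bcl2l1, 1.48-fold for Bbc3 and 1.21-fold for Bak1, while Bcl2l11 and Mcl1 were lower. Of all genes, 75.1% passed (36.3% higher and 38.7% lower), against 7 of 9 members. The log2 ratio was 1.37 for Bax (SE 0.12, adjusted p = 7.06e-08), above that of 98.7% of all genes, and 1.14 for Bad (SE 0.12, adjusted p = 3.53e-07), above 95.8%. Both had IP libraries far above all total RNA libraries. Over 23 alternatives the log2 ratio ran from 0.98 to 1.46 for Bax and from 0.97 to 1.26 for Bad. The shares of all genes given here are those of the main fit.

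Bcl2l1 was at a log2 ratio of 0.74 with Pdx1 siRNA (SE 0.06, adjusted p = 5.14e-08), Bbc3 at 0.56 (SE 0.09, adjusted p = 4.61e-05) and Bak1 at 0.27 (SE 0.08, adjusted p = 0.00601). Bcl2l11 was at -0.35 (SE 0.07, adjusted p = 0.000245) and Mcl1 at -0.18 (SE 0.08, adjusted p = 0.0439), and the Mcl1 call was lost under 13 of 23 alternatives, at -0.10 without replicate 1 of Pdx1 siRNA total RNA. In these 5 genes no IP library overlapped a total RNA library, which held for 73.5% of all genes. With the Rpl32l split as a term in the fit, Bbc3 was at 0.30 (adjusted p = 0.137) and Bak1 at 0.09 (adjusted p = 0.592), and Bcl2l11 was at -0.31 (adjusted p = 0.0572). Bcl2, at 0.18 (95% interval -0.03 to 0.39, adjusted p = 0.115), and Bid, at 0.25 (-0.02 to 0.51, adjusted p = 0.089), did not pass. Bcl2 passed with that term, at 0.50 (adjusted p = 0.0174), and Bid without replicate 3 of Pdx1 siRNA total RNA, at 0.37 (adjusted p = 0.0173).

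**Figure D3:**
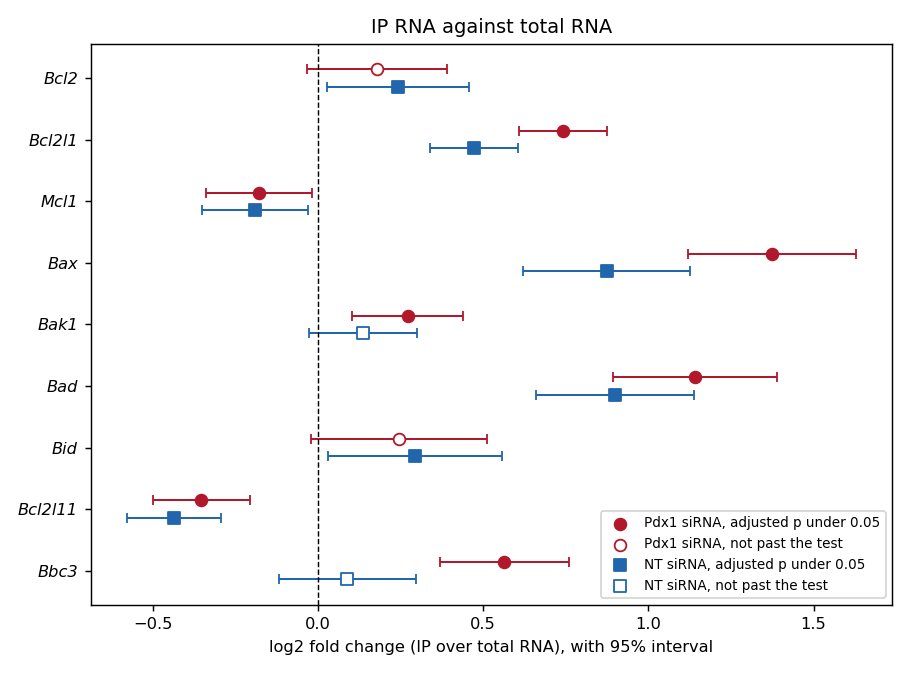
Log2 fold change of IP RNA over total RNA (horizontal axis) for each member (rows), with Pdx1 siRNA (red circles, upper) and NT siRNA (blue squares, lower), and 95% intervals from the edgeR fit. Filled symbols passed the test. Bax and Bad lie furthest to the right under both siRNAs, and Bcl2l11 and Mcl1 lie left of 0.

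The levels per kilobase allow a pro-apoptotic transcript to be set against a protective one within each library, as a description without a test. The ratio of Bbc3 to Mcl1 was 0.25, 0.28 and 0.31 in total RNA with Pdx1 siRNA, against 0.21, 0.21 and 0.20 with NT siRNA. In IP RNA it was 0.52, 0.41 and 0.48 with Pdx1 siRNA, against 0.23, 0.23 and 0.30 with NT siRNA. Every Pdx1 siRNA library was above every NT library in both kinds of RNA, and the nearest NT IP library, at 0.30, was replicate 3.

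The ratios with Bax in the numerator overlapped between groups when all libraries were used. The ratio of Bax to Bcl2l1 averaged 7.11 ± 0.91 in total RNA with Pdx1 siRNA and 7.56 ± 0.92 with NT siRNA (SD, n = 3 each). In IP RNA it averaged 10.97 ± 0.35 with Pdx1 siRNA and 9.97 ± 1.51 with NT siRNA. The single values in IP RNA were 11.1, 10.6 and 11.2 with Pdx1 siRNA, against 9.45, 8.78 and 11.7 with NT siRNA. Replicate 3 of NT IP, the 11.7, was above every Pdx1 siRNA library, and it is the only NT IP library on their side of the Rpl32l split. The other NT IP libraries were below every Pdx1 siRNA library, but between these siRNA and split cannot be told apart. The ratio of Bax to Bcl2 averaged 59.5 ± 7.06 with Pdx1 siRNA and 70.4 ± 11.7 with NT siRNA in total RNA, and 137 ± 15.8 with Pdx1 siRNA and 111 ± 34.7 with NT siRNA in IP RNA. In IP RNA its single values were 144, 119 and 148 with Pdx1 siRNA, against 99.9, 83.9 and 150.4 with NT siRNA. Again replicate 3 of NT IP was above every Pdx1 siRNA library and the other NT IP libraries below them, with the same limit. In total RNA the groups overlapped, and the direction depends on how the Bcl2 transcripts are counted: with the mean over both transcripts it was 90.2 with Pdx1 siRNA and 83.5 with NT siRNA.

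**Figure D4:**
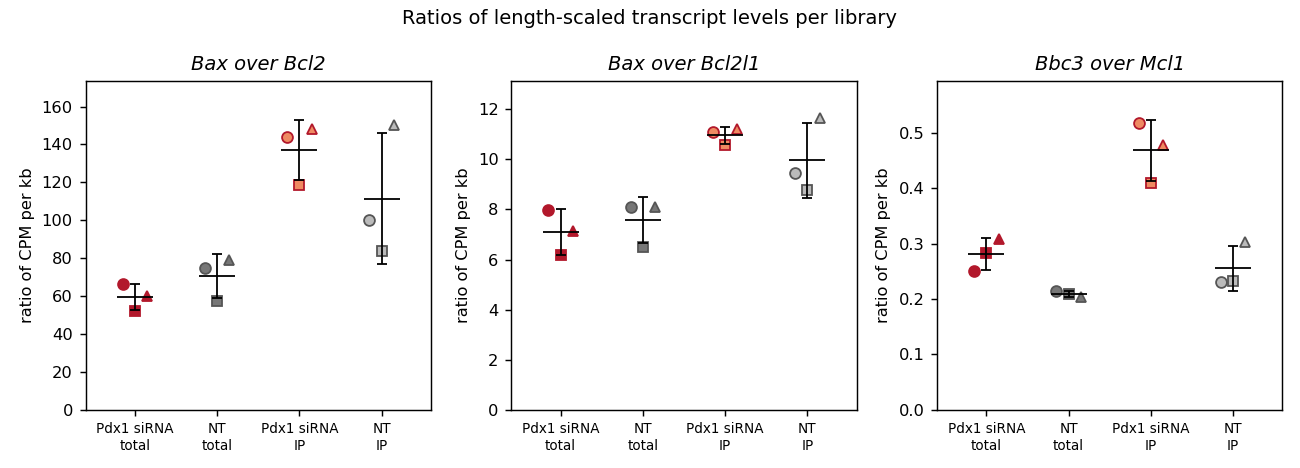
Ratios of length-scaled levels (CPM per kb, vertical axes starting at 0) in each library, with Pdx1 siRNA left of NT siRNA within total and IP RNA. Symbols are libraries and black lines the mean and SD of 3. The groups are separate for Bbc3 over Mcl1, from 0.41 to 0.52 in IP RNA with Pdx1 siRNA and from 0.23 to 0.30 with NT siRNA. They overlap for both ratios of Bax, in IP RNA through replicate 3 of NT IP (triangle), which lies above every Pdx1 siRNA IP library.

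Around these members, other relatives of the family did not rise. Of 16 listed relatives 8 were measured, and in total RNA 0 were higher and 5 lower (median log2 fold change -0.37, against -0.04 over all genes). In IP RNA 0 were higher and 3 lower (median -0.02, against -0.01). Of all genes, 23.8% were higher and 29.2% lower in total RNA, and 29.2% higher and 30.4% lower in IP RNA, by the same test. DESeq2 called 0 higher in either, with 3 lower in total RNA, and 0 were higher at an unadjusted p under 0.05. Bok, a BAX-like effector, was at a mean of 2.72 CPM with Pdx1 siRNA and 5.80 with NT siRNA in total RNA (log2 fold change -1.11, adjusted p = 1.51e-06), and fell in IP RNA as well (-0.74, adjusted p = 2.94e-05). Bnip3 and Bnip3l, which act in mitophagy, were at log2 fold changes of -1.76 (adjusted p = 5.78e-06) and -0.53 (adjusted p = 0.000182) in total RNA, and -1.82 (adjusted p = 3.21e-06) and -0.69 (adjusted p = 1.0e-05) in IP RNA. Near-identical copies elsewhere match 94.2% of the Bnip3 transcript and 34.9% of the Bnip3l transcript, so these counts are uncertain.

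Downstream of the mitochondrion, caspase and apoptosome genes passed the test in 2 of 11 cases in total RNA and 3 of 11 in IP RNA, against 53.0% and 59.7% of all genes. Of 11 measured genes of 14 listed, 2 were lower and 0 higher in total RNA (median -0.02), and 2 were lower and 1 higher in IP RNA (median -0.13). DESeq2 called 1 lower and 0 higher in total RNA, where 0 were higher at an unadjusted p under 0.05. The genes lower in both were the initiator caspase genes Casp2 and Casp8. Casp2 was at -0.78 in total RNA (adjusted p = 2.56e-06) and -0.90 in IP RNA (adjusted p = 1.44e-06), and Casp8 at -0.31 in total RNA (adjusted p = 0.0392) and -0.69 in IP RNA (adjusted p = 0.000363). Endog, a mitochondrial endonuclease, was the gene higher in IP RNA, by 0.27 (adjusted p = 0.00623). Among the IAPs, which restrain caspases, and their antagonists, all 8 listed genes were measured. In total RNA 3 were higher and 2 lower (median 0.13), and in IP RNA 2 were higher and 1 lower (median 0.01), so 5 of 8 and 3 of 8 passed, against the same shares of all genes. Birc5 (survivin), which also serves in cell division, was at a mean of 10.3 CPM with Pdx1 siRNA and 40.3 with NT siRNA in total RNA (log2 fold change -1.98, adjusted p = 2.63e-08), and at -2.42 in IP RNA (adjusted p = 2.27e-09). Birc3 (cIAP2), an inhibitor that acts in TNF receptor signalling, rose by 1.17 in total RNA (adjusted p = 5.42e-06) and 1.101 in IP RNA (adjusted p = 1.5e-05). Htra2, a mitochondrial protease that antagonises IAPs, rose by 0.20 in total RNA (adjusted p = 0.0272) and 0.60 in IP RNA (adjusted p = 3.67e-06), and Birc6, a giant IAP, rose in total RNA by 0.29 with overlapping libraries (adjusted p = 0.0206).

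The death receptor genes held the largest rise of the surrounding lists. Of 9 measured genes of 10 listed, 4 were higher and 3 lower in total RNA (median 0.06), and 5 were higher and 3 lower in IP RNA (median 0.47, against -0.01 over all genes). Of all genes, 23.8% were higher and 29.2% lower in total RNA, and 29.2% higher and 30.4% lower in IP RNA. Tnfrsf10b, the mouse TRAIL receptor, was at 9.85, 10.9 and 13.4 CPM with Pdx1 siRNA, against 3.25, 3.14 and 2.83 CPM with NT siRNA, in total RNA. It was 3.71-fold higher there (adjusted p = 3.84e-08) and 4.39-fold in IP RNA (adjusted p = 1.13e-08). Tnfrsf1a, the TNF receptor 1, rose by 0.66 in total RNA (adjusted p = 1.38e-05) and 0.95 in IP RNA (adjusted p = 2.19e-07). Cflar, an inhibitor of caspase-8 activation, rose in IP RNA by 0.48 (adjusted p = 4.22e-05), and the adaptor Fadd was at -0.55 in total RNA (adjusted p = 5.15e-05) and -0.55 in IP RNA (adjusted p = 4.36e-05). Near-identical copies match 12.7% of the Tnfrsf10b transcript, 18.9% of Cflar and 13.8% of Birc3.

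Genes that regulate BCL2 family proteins or their genes were lower more often than higher. Of 21 measured regulators of 22 listed, 3 were higher and 11 lower in total RNA (median -0.25, against -0.04 over all genes), and 3 were higher and 12 lower in IP RNA (median -0.23, against -0.01). Over all genes the shares were 23.8% higher and 29.2% lower in total RNA, and 29.2% higher and 30.4% lower in IP RNA. Fbxw7, a ubiquitin ligase component that marks MCL1 for degradation, rose by 0.63 in total RNA (adjusted p = 9.87e-07) and 0.56 in IP RNA (adjusted p = 2.82e-06). Pim1 and Pim3, kinases that phosphorylate BAD, were at -1.21 (adjusted p = 1.15e-06) and -0.62 (adjusted p = 3.72e-06) in total RNA, and the mitochondrial channel gene Vdac1 was at -0.69 in IP RNA (adjusted p = 1.27e-06). Pim1 was also lower in IP RNA, at -1.06 (adjusted p = 1.65e-05). Of 9 measured transcription factors known to act on BH3-only genes, of 11 listed, 0 were higher and 6 lower in total RNA (median -0.27), and 0 were higher and 5 lower in IP RNA (median -0.42), beside the same shares of all genes. DESeq2 gave the same counts, and 0 were higher at an unadjusted p under 0.05. Trp53, which encodes the p53 that acts on Bbc3, was at 22.03, 22.7 and 20.2 CPM in total RNA with Pdx1 siRNA, against 27.5, 26.1 and 25.03 CPM with NT siRNA. Its groups were separate, at a log2 fold change of -0.27 (adjusted p = 0.00468), and at -0.46 in IP RNA (adjusted p = 9.88e-05). Ddit3 (CHOP) and Atf4, factors of the integrated stress response, were at -0.70 (adjusted p = 1.03e-05) and -0.74 (adjusted p = 2.04e-05) in total RNA, and -0.42 (adjusted p = 0.000721) and -0.51 (adjusted p = 0.000443) in IP RNA. Myc was at -0.69 in total RNA (adjusted p = 9.57e-05) and -0.85 in IP RNA (adjusted p = 5.23e-05). Of these 66 surrounding genes, the edgeR test of the difference between the effects called 0, while 13 had an unadjusted p under 0.05 and DESeq2 called 1, Htra2. Without replicate 3 of NT IP it called 2, Htra2 and Usp9x. Of the 37 surrounding genes called for the siRNA effect in IP RNA, 36 kept direction and call without that library, with log2 fold changes that moved by -0.11 to 0.09. The exception was Ywhab, at -0.21 (adjusted p = 0.0532), against -0.19 (adjusted p = 0.0381) with it. Kept calls cannot separate the siRNA effect from the Rpl32l split, since no NT IP library is then left on the Pdx1 siRNA side. Values within the split are not given for these genes.

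**Figure D5:**
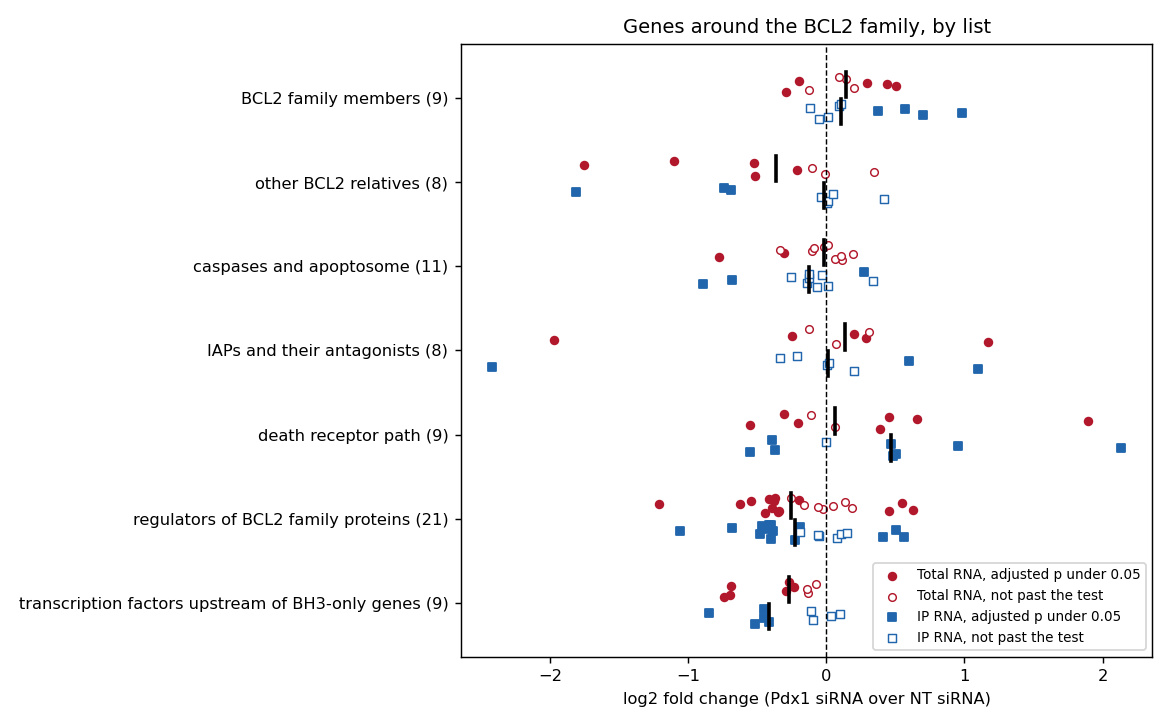
Log2 fold change of Pdx1 siRNA over NT siRNA (horizontal axis) for the measured genes of each list (rows, with the number of genes), in total RNA (red circles, upper) and IP RNA (blue squares, lower). Filled symbols passed the test and black bars are list medians. The medians of the regulators and of the upstream transcription factors lie left of 0 in both kinds of RNA, and Tnfrsf10b stands furthest right.

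The 3 members whose group means spanned the widest range were Bax, Bad and Bbc3, and for each the genes with the most similar pattern were taken from 10147 genes of at least 5 CPM. Likeness was the root mean square difference of mean-centred log2 CPM over the 12 libraries. Bax was closest to Enho (0.07) and Wbp1 (0.09), Bad to Ift27 (0.06) and Coa3 (0.06), and Bbc3 to Tpra1 (0.09) and Whrn (0.10). Among the family itself, the member closest to Bax and to Bbc3 was Bcl2l1, at 0.30 from Bax and 0.23 from Bbc3, and the member closest to Bad was Bax, at 0.34. These distances are larger than those to the nearest genes outside the family. Those were the nearest in a search over 10147 genes, so the comparison does not show whether members behave alike. All distances are over libraries that share depth and fraction.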

How the data were processed

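RNA was measured in 12 MIN6 libraries, and the authors deposited a table of raw, unnormalized counts for each (whole numbers, 1 row per RefSeq transcript). The submitters' processing notes name TopHat2, featureCounts and mm10, with no versions, strand or multi-mapping settings. Of 17133 transcripts, 16838 matched a symbol in a RefSeq table of GRCm38.p6, and the others, at most 0.83% of counts in any library, were not used. The main test was that of edgeR 4.0.16 under R 4.3.3 (quasi-likelihood, TMM, 1 fit over 12 libraries, Benjamini-Hochberg over 12643 genes, adjusted p under 0.05). SE came from the log2 fold change and F, and intervals from the fit's degrees of freedom. Transcript lengths and shared exons came from GENCODE M21, copies from minimap2 2.31, and promoter sequences from RefSeq. Figures were drawn in Python 3.11.15. The test was tried on simulated data first. DESeq2 1.42.0, other scalings, filters, a mean over transcripts, left-out libraries and a term for the Rpl32l split were alternatives. That term rests on replicate 3 of NT IP against replicates 1 and 2. Members, lists and tests were chosen with earlier results of these data known. 1 listed gene is not reported here and enters no list count. Named genes outside the family were up to 3 per list and siRNA contrast with the smallest p past the test, plus the 2 nearest in pattern to 3 members. Counts rest on reads without molecular identifiers, so they cover no PCR error. Of the marker lists, 12 of 12 beta-cell and 2 of 16 other-cell genes were measured. Among the beta-cell genes, 2 were higher and 5 lower in total RNA, and 1 was higher and 7 lower in IP RNA.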

Additional observations from a re-analysis of the deposited data

How the results depend on the processing

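The rises of Bbc3, Bcl2l1 and Bcl2 in total RNA, of Bbc3, Bcl2l1 and Bax in IP RNA, and of Bad, Bax and Bcl2l1 in IP over total RNA under both siRNAs kept their direction and call under every alternative run (22 or 23 each). Smaller differences did not. Depth was lowest for Bid, with 116 to 220 counts a library. The cause of the changes below was not tested. In total RNA the members called lower were 1 with RLE factors, the DESeq2 test or without Ins1 and Ins2, and 0 with upper-quartile factors or only the libraries compared, against 2. Leaving out 1 library gave 0 to 2. With NT siRNA, members lower in IP than total RNA were 1 with RLE factors, DESeq2, the insulin genes left out or the Rpl32l split as a term, against 2 (1 to 2 with a library left out), and 3 were higher with upper-quartile factors, against 5 (3 to 5). With Pdx1 siRNA, members lower in IP RNA were 1 with RLE factors, DESeq2, only the libraries compared or within the split, and 0 with the split as a term, against 2 (1 to 2). Genes called for the difference of effects were 29, against 52 with upper-quartile factors, 327 with DESeq2, 54 without the insulin genes, 5 with the split as a term, 5 within the split and 4 to 571 with a library left out, which gave 0 to 2 members. Within the split, 4900 genes were called for the siRNA effect in IP RNA, against 7542.

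Same-numbered libraries of the groups compared correlated at -0.05 to 0.51 in their deviations from the group means, and differently numbered ones at -0.52 to 0.27. No pairing was assumed, as the labels name no shared source and not every library correlated best with its own number. With the replicate number as a block, 373 genes and 1 member, Bax at 0.50 (adjusted p = 0.0433), were called for the difference of effects, and no other member's call changed.

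Reversed signs were all of differences that did not pass. For the difference of effects, Mcl1 was at -0.0054 with RLE factors, -0.024 with upper-quartile factors, -0.0044 with DESeq2, -0.020 without the insulin genes and -0.046 to 0.090 with a library left out. Bcl2 was at 0.16 with the split as a term and 0.15 within it (-0.16 to 0.0026 with a library left out), and Bid at 0.020 and 0.0145 (-0.18 to 0.080). For the siRNA effect in IP RNA, Bak1 was at -0.11 in both (-0.031 to 0.070 with a library left out) and Bad at 0.0089 without replicate 3 of NT IP (lowest -0.145, without replicate 2). Bbc3 in IP over total RNA with NT siRNA was at -0.0059 with the split as a term and without that library. The mean over transcripts moved the ratio of Bax to Bcl2 to 90.2 with Pdx1 siRNA and 83.5 with NT siRNA in total RNA. In IP RNA it moved to 211 with Pdx1 siRNA and was 144 with NT siRNA. The IP groups still overlapped, with 189 in replicate 3 of NT IP and 180 in replicate 2 of Pdx1 siRNA IP.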
